A study of Mus musculus with 12 samples.

Results

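Matrix proteases and their inhibitors were examined in the livers of LiKM and LiK mice. They were taken as the genes whose symbol is Mmp, Timp, Adam, Adamts or Adamtsl followed by a number and at most 1 letter, with a summed count of at least 10 over the 12 libraries. Of 84 such symbols, 58 met the count minimum, out of 24421 genes in the table. They were 17 matrix metalloproteinases (MMPs), 3 tissue inhibitors of metalloproteinases (TIMPs), 17 ADAMs, 16 ADAMTS and 5 ADAMTS-like genes. Of the 58, 46 passed the filter on low counts and were tested, and 12 were not. The other 26 symbols held under 10 counts in all, and 14 of these were at 0 in every library. Among them, Timp4 held a summed count of 6.5, Mmp10 of 0.5 and Mmp16 of 4, and Mmp1a and Mmp1b were at 0.

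MMPs are zinc enzymes that cut collagens, proteoglycans and other proteins of the extracellular matrix, and most are made as inactive precursors. TIMPs are secreted proteins that block the active site of MMPs, and Timp3 also blocks several ADAMs and ADAMTS enzymes. ADAMs are mostly membrane proteins that release the outer part of other membrane proteins, such as growth factor precursors and cytokines. ADAMTS enzymes are secreted proteases with thrombospondin repeats that process procollagen, proteoglycans and von Willebrand factor, and ADAMTS-like proteins share their matrix-binding domains but lack the protease. In injured liver much of this set is known to be made by hepatic stellate cells, macrophages and biliary epithelium, and the balance of MMPs and TIMPs is known to bear on whether scar matrix stays or is removed.

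RNA was sequenced from liver tissue without tumour of male mice aged 4 months, with 3 mice in each of 4 groups. The groups were LiKM on a diet with 0.06% ACR, LiKM on normal diet, LiK on the ACR diet and LiK on normal diet. ACR, an acyclic retinoid studied against liver cancer, was given to mice from 5 weeks old. The labels do not spell the genotypes out. From what is known of the study, LiKM hepatocytes are to be without Mdm2, a ligase that marks p53 for breakdown, while LiK hepatocytes keep it. The change rests on Cre recombinase driven by the albumin promoter, which is active in hepatocytes and also in the fetal precursors that hepatocytes share with bile duct cells, so bile duct cells may carry it too. LiKM was compared with LiK under each diet, ACR with normal diet within each strain, and the diet effect in LiKM with that in LiK.

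Libraries held 10124813 to 18647156 counts. Levels are given as CPM, counts scaled to a common library total with TMM factors of 0.83 to 1.24. These factors differed by strain without overlap, at 0.997 to 1.24 in LiKM libraries and 0.83 to 0.975 in LiK libraries. Mdm2 stood at 29 to 67.2 CPM in the 6 LiKM libraries and at 21.6 to 25.8 CPM in the 6 LiK libraries. These counts cover the whole gene, exons outside any deleted part included, so they do not check the deletion. The 15 hepatocyte markers summed to 131370 to 173560 CPM in LiKM and 160322 to 174569 CPM in LiK on ACR, and none was at 0 in a group. On normal diet the strains did not overlap, at 98911 to 111576 CPM in LiKM and 130829 to 179810 CPM in LiK, with 4 of the 15 called lower in LiKM, 0 called higher and a median log2 fold change of -0.58. Clock genes set some libraries apart. Npas2 stood at 10.4 and 18.2 CPM in LiKM ACR 2 and 3, against at most 1.51 CPM in the other 10, and Nr1d1 at 215 CPM in LiKM normal diet 3, against 8.04 and 20.7 CPM in the other LiKM livers on that diet. Nr1d1 also differed between groups, at 7.12 to 81.2 CPM in LiKM on ACR, 136 to 181 CPM in LiK on ACR and 16.1 to 27.2 CPM in LiK on normal diet, and its part in the results was not tested. Identifiers of LiKM ACR 3 and of LiK normal diet 2 and 3 begin with a prefix other than that of the remaining 9, for a reason the labels do not give. LiK normal diet 2 also held 60.9 CPM of smooth muscle markers, against 9.72 to 26.5 CPM in the other 11, and 1 of these 6 markers was at 0 in all LiKM normal diet and all LiK ACR libraries. Counts of members called are also given without the first 2 sets of libraries, and fold changes without LiK normal diet 2 are given where they move most.

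The comparison of LiKM with LiK asks how the intended loss of Mdm2 in hepatocytes bears on the protease genes of the liver. On normal diet, 23 of the 46 tested members were higher in LiKM and 2 were lower at an adjusted p under 0.05 (edgeR's quasi-likelihood test, Benjamini-Hochberg over 13880 genes). Of all genes tested, 13.2% were called higher and 8.61% lower. The median log2 fold change was 1.16 over the tested members and 0.02 over all genes tested. A gene high in a single group passes the filter on low counts, so these counts and medians describe the tested members alone. On ACR, 11 members were higher in LiKM and 0 were lower, beside 5.55% of all genes called higher and 4.24% called lower. There the median was 1.00 over the tested members and 0.02 over all genes tested. An unadjusted p under 0.05 was found in 25 members, beside 3825 of the 13880 genes tested. The comparisons on the 2 diets share no library, but both come from 1 fit on all 12 libraries with a shared estimate of the spread. Both called 9 of the members higher, which is 39.1% of those called on normal diet and 81.8% of those called on ACR. The matching shares over all genes were not counted. The 9 were Mmp7, Mmp23, Timp2, Adam8, Adam19, Adamts5, Adamts9, Adamts10 and Adamtsl4. In fits that each left out 1 of the 12 libraries, 10 of the 25 calls on normal diet and 1 of the 11 on ACR held every time.

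Without the 3 libraries apart in clock genes, which leaves 1 LiKM liver on ACR, 24 members were called on normal diet, 20 of them as before, and 4 on ACR, 3 of them as before. A lone liver of a group is here assumed to vary like the other groups. The calls lost were those of Adam12, Adamtsl2, Mmp9, Mmp13 and Mmp19 on normal diet (adjusted p 0.0533 to 0.0681), and of Adam8, Adam17, Adam19, Adamts5, Adamts9, Adamtsl4, Mmp23 and Timp2 on ACR (adjusted p 0.109 to 0.358). Without the 3 libraries of the other prefix, which leaves 1 LiK liver on normal diet, 13 members were called on normal diet, 12 as before, and 5 on ACR, 3 as before. The calls lost on normal diet were those of Adam1a, Adam9, Adam12, Adamts5, Adamts12, Adamts14, Adamts16, Adamtsl3, Adamtsl4, Mmp2, Mmp13, Mmp19 and Mmp23 (adjusted p 0.0504 to 0.309). Those lost on ACR were Adam17, Adam19, Adamts5, Adamts9, Adamtsl4, Mmp23, Timp1 and Timp2 (adjusted p 0.0560 to 0.206). Same-numbered LiKM livers deviated alike across diets, a pairing read from these data that no label states. With the number as a replicate block within LiKM, 24 members were called on normal diet, 22 of them as before, and 14 on ACR, 10 of them as before. That block takes the differences between LiKM numbers out of the spread against which the strains are compared. It ended the calls of Adam12, Adamtsl2 and Mmp2 on normal diet (adjusted p 0.0503 to 0.0597) and of Timp2 on ACR (adjusted p = 0.0638), and added Mmp14 and Timp1 on normal diet (adjusted p = 0.0448 and 0.0370) and Adam15, Adam33, Adamts15 and Adamtsl5 on ACR (adjusted p 0.00938 to 0.0495), all higher in LiKM.

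By family, normal diet gave 5 MMPs higher and 1 lower of 13 tested, 1 TIMP higher of 3, 6 ADAMs higher and 1 lower of 12, 8 ADAMTS higher of 13 and 3 ADAMTS-like genes higher of 5. On ACR, 2 of 13 MMPs, 2 of 3 TIMPs, 3 of 12 ADAMs, 3 of 13 ADAMTS and 1 of 5 ADAMTS-like genes were higher. Beside these counts, 13.2% of all genes tested were called higher and 8.61% lower on normal diet, and 5.55% and 4.24% on ACR. Summed over the 16 ADAMTS members, LiKM livers on normal diet held 107, 114 and 128 CPM, against 49, 67.1 and 54.2 CPM in LiK livers on normal diet. The 3 LiKM livers all lay above the 3 LiK livers, as they also did on ACR, with 76.3, 83.9 and 106 CPM in LiKM against 67.4, 55.8 and 52.7 CPM in LiK. Summed MMP levels overlapped on normal diet, at 248, 241 and 190 CPM in LiKM and 216, 157 and 222 CPM in LiK. On ACR they did not, at 255, 216 and 230 CPM in LiKM and 205, 175 and 187 CPM in LiK. Summed TIMP, ADAM and ADAMTS-like levels did not overlap on ACR either. On normal diet those of TIMPs and ADAMs overlapped and those of ADAMTS-like genes did not.

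**Figure D1:**
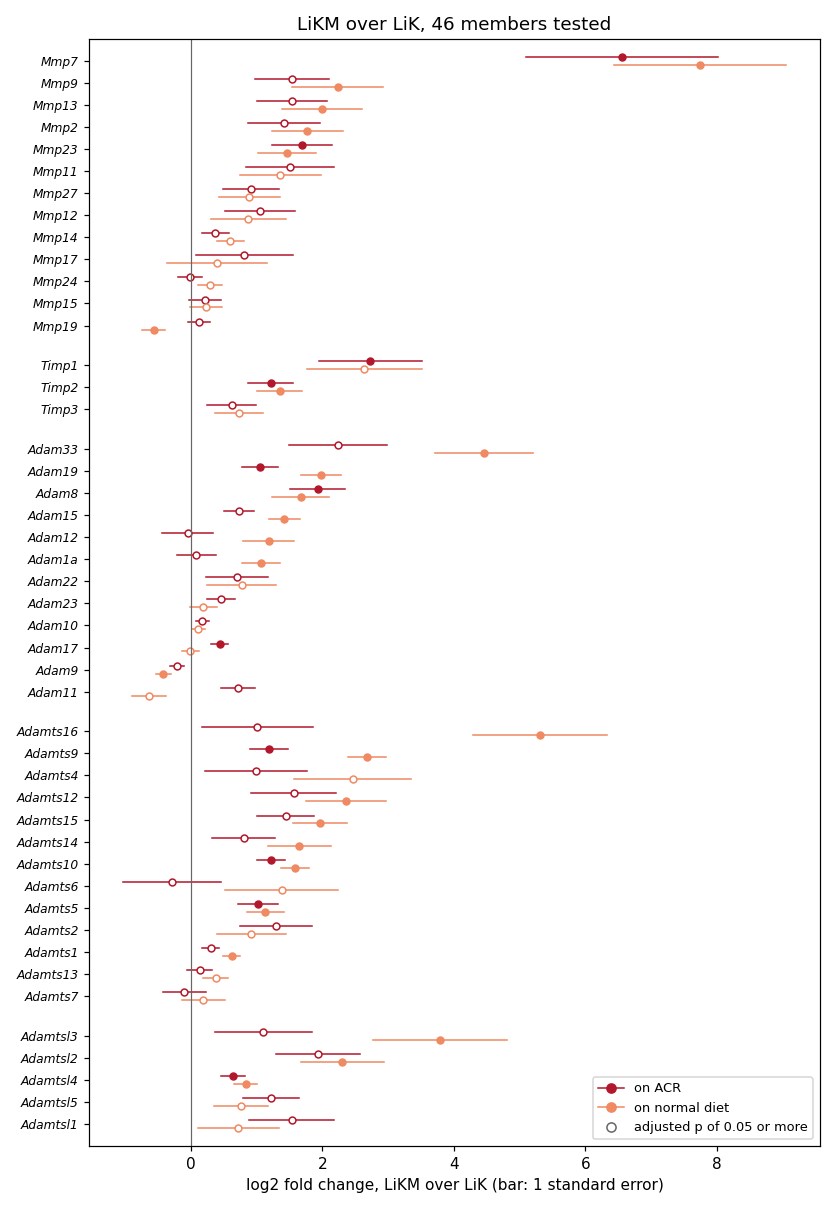
Log2 fold change of LiKM over LiK with 1 standard error for the 46 members tested, on ACR (red) and on normal diet (orange), ordered within each family. Filled points passed an adjusted p of 0.05, and most lie to the right of 0. Values of Mmp7, which was at 0 in all LiK libraries, depend on the small count the fit adds.

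Markers of several other cell types differed between the strains in the same livers. Of all genes tested, 13.2% were called higher in LiKM on normal diet and 5.55% on ACR. The 13 biliary markers summed to 675 to 1122 CPM in LiKM on normal diet against 57.7 to 72.8 CPM in LiK on normal diet, and to 371 to 580 CPM in LiKM on ACR against 56 to 215 CPM in LiK on ACR. All 13 were called higher in LiKM on normal diet and 12 on ACR, Cftr, Krt19 and Epcam among them. The sum of 215 CPM was that of LiK ACR 1, and the other LiK livers on ACR held 70.9 and 56 CPM. Macrophage markers summed to 300 to 542 CPM in LiKM and 197 to 414 CPM in LiK on normal diet, and to 669 to 682 CPM in LiKM and 293 to 572 CPM in LiK on ACR. Of the 16, 4 were called higher on normal diet and 7 on ACR. Stellate cell markers overlapped on normal diet, at 410 to 854 CPM in LiKM against 382 to 668 CPM in LiK, with 3 of 15 called higher. On ACR they were at 625 to 762 CPM in LiKM against 425 to 566 CPM in LiK, with 0 of 15 called and 5 at an unadjusted p under 0.05. T and NK cell markers did not overlap between strains on either diet. They summed to 8.28 to 15.8 CPM in LiKM and 5.78 to 7.54 CPM in LiK on normal diet, with 6 of 8 tested called higher and 1 lower, and to 11.5 to 21.4 CPM in LiKM and 6.06 to 9.12 CPM in LiK on ACR, with 2 of 8 called higher. Endothelial markers gave 2 of 12 higher on normal diet and 0 on ACR, B cell markers 1 of 6 higher on each diet. Both shares on normal diet, 16.7%, were near that of all genes. None of these markers was at 0 in all libraries of a group. In whole tissue, more cells of a type and more RNA per cell cannot be told apart. The part of these cells in the member results was not tested.

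**Figure D2:**
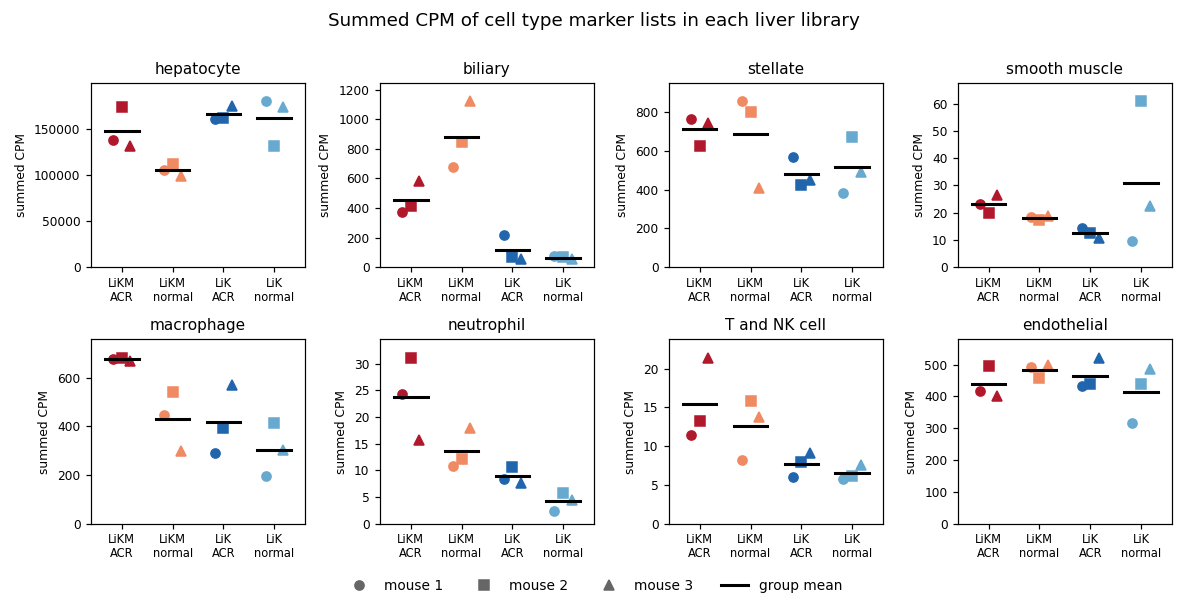
Summed CPM of 8 cell type marker lists in each library (points, 1 shape per mouse number) with group means (bars). Biliary sums were 371 to 1122 CPM in LiKM livers and 56 to 215 CPM in LiK livers, and LiK normal diet 2 stands out in smooth muscle markers at 60.9 CPM.

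Mmp7, matrilysin, is a small MMP made mainly by epithelial cells, in liver by bile duct cells. It lies at chr9:7692090-7699585 on the plus strand (mm10). On normal diet it stood at 2.64, 1.9 and 0.795 CPM in LiKM livers and at 0 in the 3 LiK livers. On ACR it stood at 1.24, 0.881 and 0.244 CPM in LiKM livers and again at 0 in the 3 LiK livers. Every LiKM library held Mmp7 reads and no LiK library held one. Against a floor of 3 counts over the LiK group, the LiKM mean was 26.0-fold higher on normal diet and 11.4-fold higher on ACR. These ratios leave out the spread and counting error of the LiKM livers. The edgeR fit called Mmp7 higher in LiKM on normal diet (adjusted p = 0.00629) and on ACR (adjusted p = 0.0315). The call on normal diet held in all 12 fits that left out 1 library. On ACR it was lost without LiKM ACR 1, LiKM ACR 2 or any 1 of the 3 LiK ACR libraries (adjusted p 0.0635 to 0.0929). An antisense gene, AV064505, overlaps its exons by 123 bases.

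The stretch of 250 bases before the start is shown for the 4 members with the largest fold changes that have an entry in the RefSeq promoter table (GRCm38.p6), since each was called between the strains on at least 1 diet and they are read here for shared short motifs. Capitals mark the AP-1 motif TGANTCA (its own reverse complement), the ETS motif AGGAAG on either strand (CTTCCT on the other) and the TATA motif TATAAA on the gene's strand, and none of these overlaps another here.
Mmp7 chr9:7691840-7692089, plus strand: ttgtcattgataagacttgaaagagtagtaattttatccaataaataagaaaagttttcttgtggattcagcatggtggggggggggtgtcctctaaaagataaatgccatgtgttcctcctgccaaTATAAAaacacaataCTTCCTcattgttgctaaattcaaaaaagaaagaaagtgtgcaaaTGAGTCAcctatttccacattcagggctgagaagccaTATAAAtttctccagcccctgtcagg
Adamtsl3 chr7:82335444-82335693, plus strand: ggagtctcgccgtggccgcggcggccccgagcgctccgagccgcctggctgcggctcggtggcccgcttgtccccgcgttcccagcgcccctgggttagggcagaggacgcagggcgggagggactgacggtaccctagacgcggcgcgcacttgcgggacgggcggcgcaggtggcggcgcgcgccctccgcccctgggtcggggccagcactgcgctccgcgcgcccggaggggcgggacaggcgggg
Timp1 chrX:20869916-20870165, plus strand: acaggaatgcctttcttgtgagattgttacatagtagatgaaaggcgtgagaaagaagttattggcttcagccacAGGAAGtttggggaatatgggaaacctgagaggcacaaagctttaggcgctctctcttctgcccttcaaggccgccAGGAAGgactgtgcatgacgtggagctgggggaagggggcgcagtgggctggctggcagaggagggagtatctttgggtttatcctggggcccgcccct
Adamts9 chr6:92943535-92943784, minus strand: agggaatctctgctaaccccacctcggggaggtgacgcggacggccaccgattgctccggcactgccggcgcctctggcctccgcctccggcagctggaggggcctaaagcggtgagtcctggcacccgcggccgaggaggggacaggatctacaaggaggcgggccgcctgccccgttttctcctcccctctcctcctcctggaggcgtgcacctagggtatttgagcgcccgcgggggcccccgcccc
In Mmp7 the AP-1 motif begins 63 bases before the start, CTTCCT 108 bases before it and TATAAA 26 and 123 bases before it. Timp1 holds AGGAAG 99 and 175 bases before the start and again 41 bases after it, and the windows of Adamtsl3 and Adamts9 hold none of the 3 motifs. Over windows of 300 bases, 250 before and 50 after the start, AP-1 motifs occurred in 7.81% of 32851 promoters and in 6 of 42 promoters (14.3%) of the 37 members with an entry. The ETS motif occurred in 35.4% of all promoters and 16 of the 42 (38.1%), and TATAAA in 8.32% of all and 6 of the 42 (14.3%).

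**Figure D3:**
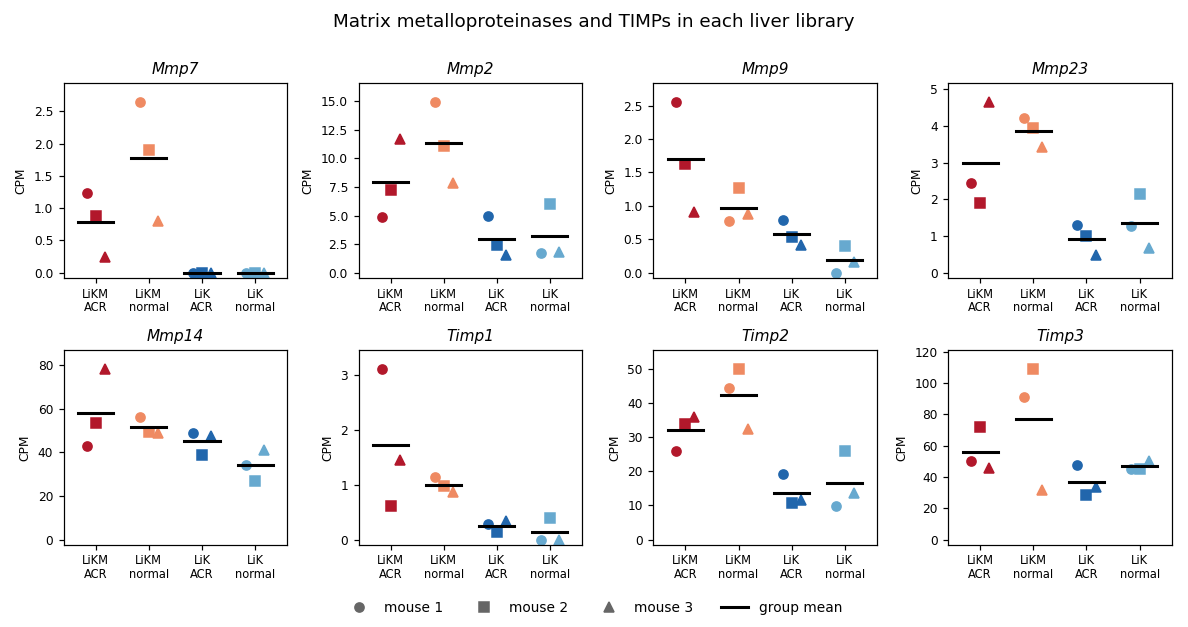
CPM of 5 MMPs and 3 TIMPs in each library (points, 1 shape per mouse number) with group means (bars), on linear axes. Mmp7 was at 0 in all 6 LiK libraries, and Mmp14 and Timp3 overlapped between strains on ACR.

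The gelatinases Mmp2 and Mmp9, which cut denatured collagen and basement membrane collagen, were both called higher on normal diet. Mmp2 stood at 14.9, 11.1 and 7.87 CPM in LiKM livers and 1.76, 6.05 and 1.84 CPM in LiK livers on normal diet. On ACR it stood at 4.85, 7.25 and 11.7 CPM in LiKM livers and 4.98, 2.4 and 1.58 CPM in LiK livers. The strains did not overlap on normal diet and overlapped on ACR. Mmp2 was 3.42-fold higher on normal diet (log2 1.77 ± 0.54 SE, adjusted p = 0.0376) and 2.67-fold on ACR, which did not pass (log2 1.42 ± 0.55, adjusted p = 0.119). The call was lost without LiKM normal diet 1, LiKM normal diet 2, LiK ACR 2, LiK normal diet 1 or LiK normal diet 3 (adjusted p 0.0518 to 0.123). Without LiK normal diet 2, the LiK library highest in Mmp2, the log2 fold change on normal diet was 2.64. That library, high in smooth muscle markers, also held 668 CPM of stellate markers, against 382 and 490 CPM in the other LiK livers on normal diet. The part of these cells in the result was not tested.

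Mmp9, which in injured liver comes largely from neutrophils and macrophages, stood at 0.78, 1.27 and 0.875 CPM in LiKM livers and 0, 0.396 and 0.167 CPM in LiK livers on normal diet. With ACR the levels were 2.55, 1.63 and 0.915 CPM in LiKM livers and 0.793, 0.533 and 0.412 CPM in LiK livers. LiKM lay above LiK on each diet. Mmp9 was 4.68-fold higher on normal diet (log2 2.23 ± 0.69, adjusted p = 0.0381), and its 2.91-fold difference on ACR did not pass (adjusted p = 0.0994). The call was lost in 6 of the 12 fits without 1 library: LiKM normal diet 1, 2 or 3, LiK ACR 2, and LiK normal diet 1 or 3 (adjusted p 0.0536 to 0.101). Without LiK normal diet 2 the log2 fold change was 3.51. Neutrophil markers summed to 10.9 to 17.9 CPM in LiKM against 2.47 to 5.71 CPM in LiK on normal diet, and to 15.7 to 31.1 CPM in LiKM against 7.68 to 10.6 CPM in LiK on ACR. Of 6 tested neutrophil markers, 3 were called higher on each diet (S100a8, S100a9 and Csf3r), none of the 9 in the table was at 0 in all libraries of a group, and their part in the result was not tested.

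Mmp23, a membrane-anchored member of unusual structure, stood at 4.2, 3.94 and 3.42 CPM in LiKM livers and 1.27, 2.15 and 0.67 CPM in LiK livers on normal diet. LiKM livers on ACR held 2.43, 1.9 and 4.64 CPM, against 1.3, 0.999 and 0.48 CPM in LiK livers on ACR. The strains did not overlap on either diet. Mmp23 was 2.75-fold higher on normal diet (log2 1.46 ± 0.44, adjusted p = 0.0348) and 3.22-fold higher on ACR (log2 1.69 ± 0.46, adjusted p = 0.0416). Calls were lost without any 1 of the LiKM normal diet libraries, LiK normal diet 1 or LiK normal diet 3 on normal diet (adjusted p 0.0557 to 0.110). On ACR, 8 of the 12 fits without 1 library lost it, those without LiKM ACR 1 or 3, LiKM normal diet 1 or 2, any LiK ACR library or LiK normal diet 1 (adjusted p 0.0505 to 0.122). Mmp13, the main interstitial collagenase of rodents, averaged 0.647 ± 0.053 CPM in LiKM and 0.146 ± 0.119 CPM in LiK on normal diet (SD, n = 3 each) and was 3.96-fold higher (adjusted p = 0.0371). Its call was lost without any 1 of the LiKM normal diet libraries, LiK ACR 2, LiK normal diet 1 or LiK normal diet 3 (adjusted p 0.0518 to 0.123), and its log2 fold change, 1.99, was 2.94 without LiK normal diet 2. On ACR Mmp13 averaged 0.884 ± 0.488 CPM in LiKM and 0.3 ± 0.0825 CPM in LiK and did not pass (adjusted p = 0.0819).

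Mmp14, the membrane protease that activates the Mmp2 precursor, stood at 56.1, 49.2 and 49.1 CPM in LiKM livers and 34.4, 26.9 and 41 CPM in LiK livers on normal diet. Under ACR, LiKM livers held 43, 53.3 and 78.2 CPM and LiK livers 48.8, 39 and 47.7 CPM. The strains parted on normal diet only, and neither difference passed, at 1.51-fold on normal diet (log2 0.60 ± 0.21, adjusted p = 0.0589) and 1.29-fold on ACR (log2 0.37 ± 0.21, adjusted p = 0.275). The other 3 membrane-type MMPs tested, Mmp15, Mmp17 and Mmp24, had log2 fold changes of 0.23, 0.40 and 0.29 on normal diet. With Mmp14, 0 of the 4 were called in the main edgeR fit on either diet. The replicate block within LiKM called Mmp14 on normal diet (adjusted p = 0.0448). Only Mmp14 on normal diet had an unadjusted p under 0.05 among these 4.

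Mmp19, an MMP of broad substrate range, went the other way. On normal diet it stood at 50.4, 46.1 and 36.1 CPM in LiKM livers and 69.2, 50.6 and 77.3 CPM in LiK livers, a narrow gap with no overlap. Values on ACR were 60, 63.1 and 46 CPM in LiKM livers and 54.5, 51.3 and 49.4 CPM in LiK livers, which overlapped. Mmp19 was 1.48-fold lower in LiKM on normal diet (log2 -0.57 ± 0.17, adjusted p = 0.0366) and did not pass on ACR (log2 0.12 ± 0.17, adjusted p = 0.687). Scaled by library size alone, the normal diet value was -0.18 and no longer called (adjusted p = 0.321), where the median of all genes stood at 0.40. The call was also lost without LiKM normal diet 2 or 3, LiK ACR 2 or 3, or LiK normal diet 1 or 3 (adjusted p 0.0513 to 0.134). Exons of Tmem198b overlap 789 bases of Mmp19 on the other strand, and no source used here gives the strand setting of the counting.

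The remaining tested MMPs, Mmp11, Mmp12, Mmp15, Mmp17, Mmp24 and Mmp27, had log2 fold changes of 0.23 to 1.36 on normal diet. None passed in the main edgeR fit on either diet. Of these, Mmp11 (stromelysin-3) had fold changes of 2.56 on normal diet and 2.83 on ACR, each at an unadjusted p under 0.05 (0.0496 and 0.0453). The 4 MMPs not tested held few counts, 68 for Mmp28, 36.01 for Mmp25, 34 for Mmp8 and 10.5 for Mmp3 over all libraries. Mmp3, Mmp7, Mmp8, Mmp12, Mmp13 and Mmp27 lie in 1 cluster on chromosome 9, between bases 7272514 and 7699585, and their log2 fold changes on normal diet, where tested, ran from 0.87 in Mmp12 upward.

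Among the inhibitors, Timp2 was called on both diets, Timp1 on ACR, and Timp3 on neither. Timp2, which also helps Mmp14 to activate the Mmp2 precursor, stood at 44.3, 50 and 32.5 CPM in LiKM livers and 9.93, 26 and 13.6 CPM in LiK livers on normal diet. On ACR it stood at 25.9, 34 and 36 CPM in LiKM livers and 19.1, 10.7 and 11.7 CPM in LiK livers. On neither diet did the strains overlap. Timp2 was 2.55-fold higher on normal diet (log2 1.35 ± 0.34, adjusted p = 0.0174) and 2.32-fold higher on ACR (log2 1.21 ± 0.34, adjusted p = 0.0465). On normal diet the call was lost without LiK normal diet 1 or 3 (adjusted p = 0.0559 and 0.0651). On ACR it was lost without any 1 of the LiKM ACR libraries, LiKM normal diet 1 or 2, LiK ACR 2 or 3, or LiK normal diet 3 (adjusted p 0.0563 to 0.165).

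Timp1, the inducible inhibitor that rises in fibrotic liver, stood at 1.14, 0.986 and 0.875 CPM in LiKM livers and 0, 0.396 and 0 CPM in LiK livers on normal diet. With ACR the levels were 3.11, 0.61 and 1.46 CPM in LiKM livers and 0.288, 0.133 and 0.343 CPM in LiK livers. LiKM lay above LiK on each diet. Timp1 was 6.66-fold higher on ACR (log2 2.73 ± 0.78, adjusted p = 0.0472), and its 6.24-fold difference on normal diet did not pass (log2 2.64 ± 0.88, adjusted p = 0.0510). The call was lost in 9 of 12 fits without 1 library, those without LiKM ACR 1 or 3, any LiKM normal diet library, any LiK ACR library or LiK normal diet 3 (adjusted p 0.0509 to 0.167). Without LiKM ACR 1 the log2 fold change was 2.00. The counts behind these values were small, 11 to 19 per LiKM library and 0 to 7 per LiK library on normal diet.

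Timp3, which is bound to the matrix and also blocks Adam17, stood at 90.9, 109 and 31.6 CPM in LiKM livers and 44.9, 45.1 and 50.3 CPM in LiK livers on normal diet. LiKM livers on ACR held 50.5, 72.2 and 45.7 CPM, against 47.7, 28.4 and 33.7 CPM in LiK livers on ACR. LiKM normal diet 3 lay below every LiK liver of that diet, and the strains overlapped on both diets. The differences did not pass on normal diet (log2 0.73 ± 0.37, adjusted p = 0.187) or on ACR (log2 0.62 ± 0.37, adjusted p = 0.318). Exons of Syn3 overlap 1733 bases of Timp3 on the other strand.

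Among the ADAMs, the largest difference was in Adam33, known mostly from airway smooth muscle and fibroblasts. It stood at 4.14, 10.6 and 18.1 CPM in LiKM livers and 0.211, 0.905 and 0.251 CPM in LiK livers on normal diet. Under ACR, LiKM livers held 0.995, 2.3 and 4.94 CPM and LiK livers 0.649, 0.466 and 0.617 CPM. No LiK liver reached a LiKM liver of its diet, and LiKM livers varied widely among themselves. Adam33 was 21.9-fold higher on normal diet (log2 4.46 ± 0.74, adjusted p = 0.00267), and this call held in all 12 fits without 1 library. The log2 fold change was 3.87 without LiKM normal diet 3 and 5.51 without LiK normal diet 2. On ACR the 4.73-fold difference did not pass (log2 2.24 ± 0.75, adjusted p = 0.0798).

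Adam19, a membrane protease that sheds neuregulins, stood at 4.68, 4.09 and 5.33 CPM in LiKM livers and 0.845, 1.02 and 1.76 CPM in LiK livers on normal diet. Values on ACR were 4.91, 3.32 and 5.98 CPM in LiKM livers and 2.02, 2.6 and 2.26 CPM in LiK livers. All LiKM livers lay above the LiK livers of their diet. Adam19 was 3.94-fold higher on normal diet (log2 1.98 ± 0.30, adjusted p = 0.00145), a call that held without any 1 library. On ACR it was 2.06-fold higher (log2 1.05 ± 0.28, adjusted p = 0.0386), lost without LiKM ACR 1 or 3, LiKM normal diet 2 or any 1 of the LiK ACR libraries (adjusted p 0.0501 to 0.121).

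Adam8, a protease of neutrophils and macrophages, stood at 2.22, 1.62 and 2.15 CPM in LiKM livers and 0.282, 1.02 and 0.502 CPM in LiK livers on normal diet. On ACR it stood at 1.8, 2.3 and 3.35 CPM in LiKM livers and 0.865, 0.466 and 0.617 CPM in LiK livers. LiKM lay above LiK on each diet, as the summed neutrophil markers did on both diets and the summed macrophage markers on ACR. Their part in the result was not tested. Adam8 was 3.19-fold higher on normal diet (log2 1.67 ± 0.43, adjusted p = 0.0179) and 3.81-fold higher on ACR (log2 1.93 ± 0.42, adjusted p = 0.0181). Calls were lost without LiK normal diet 1 or 3 on normal diet (adjusted p = 0.0642 and 0.0625) and without LiK ACR 2 or 3 on ACR (adjusted p = 0.0864 and 0.0544). Without LiK normal diet 2 the log2 fold change on normal diet was 2.34.

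Adam15, a disintegrin protease of epithelium and endothelium, stood at 8.28, 7.04 and 8.99 CPM in LiKM livers and 2.25, 3.96 and 2.76 CPM in LiK livers on normal diet. With ACR the levels were 6.47, 5.29 and 6.77 CPM in LiKM livers and 4.4, 3.93 and 2.88 CPM in LiK livers. The strains did not overlap on either diet. Adam15 was 2.68-fold higher on normal diet (log2 1.42 ± 0.24, adjusted p = 0.00211), also without any 1 library, and its 1.65-fold difference on ACR did not pass (log2 0.73 ± 0.23, adjusted p = 0.0679). A gene on the other strand, 4731419I09Rik, overlaps 1263 bases of its exons.

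Adam12, which is made by activated stellate cells, stood at 1.92, 1.41 and 1.19 CPM in LiKM livers and 0.352, 1.08 and 0.502 CPM in LiK livers on normal diet. LiKM livers on ACR held 0.871, 0.746 and 0.976 CPM, against 0.937, 0.866 and 0.892 CPM in LiK livers on ACR. The strains parted on normal diet and lay together on ACR. Adam12 was 2.27-fold higher on normal diet (log2 1.18 ± 0.39, adjusted p = 0.0466) and did not pass on ACR (log2 -0.05 ± 0.39, adjusted p = 0.950). Its call was the least stable of those on normal diet, lost in 11 of 12 fits without 1 library (adjusted p 0.0512 to 0.152) and with DESeq2 (adjusted p = 0.0585). The exception was LiK normal diet 2, without which the log2 fold change was 1.82.

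Adam10 and Adam17 are the main sheddases of most cells, releasing Notch and EGF receptor ligands and tumour necrosis factor. Adam10 stood at 38.3, 43.1 and 35.4 CPM in LiKM livers and 34.5, 34.7 and 38.8 CPM in LiK livers on normal diet. Under ACR, LiKM livers held 39.1, 41.1 and 39.5 CPM and LiK livers 37.1, 31.9 and 37 CPM. The differences were 1.08-fold on normal diet (log2 0.11 ± 0.10, adjusted p = 0.466) and 1.13-fold on ACR (log2 0.17 ± 0.10, adjusted p = 0.300), and neither passed, although the libraries on ACR did not overlap. Adam17 stood at 28.3, 23.8 and 23.4 CPM in LiKM livers and 25.4, 26.4 and 24.1 CPM in LiK livers on normal diet, which overlapped (log2 -0.01 ± 0.13, adjusted p = 0.979). Values on ACR were 29.4, 28.2 and 29.6 CPM in LiKM livers and 18.7, 19.8 and 25.8 CPM in LiK livers. That difference, 1.36-fold, passed narrowly (log2 0.44 ± 0.13, adjusted p = 0.0496). It was lost in 9 of 12 fits without 1 library: any LiKM ACR library, LiKM normal diet 2, LiK ACR 1 or 2, or any LiK normal diet library (adjusted p 0.0617 to 0.177). Iah1 overlaps 311 bases of Adam17 exons on the other strand.

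Of the other ADAMs, Adam9, a widely expressed sheddase, averaged 71.7 ± 11.7 CPM in LiKM livers and 95.9 ± 6.31 CPM in LiK livers on normal diet (SD, n = 3 each) and was 1.34-fold lower (log2 -0.42, adjusted p = 0.0232). Without LiKM normal diet 2, LiK normal diet 2 or LiK normal diet 3 this was lost (adjusted p 0.0546 to 0.0756), and scaled by library size alone the value was -0.04 (adjusted p = 0.810). Adam1a, with 2.08-fold more reads in LiKM on normal diet (adjusted p = 0.0245), is uncertain, since its exons share 4779 bases with Gm42878 and 1805 with Mapkapk5 on the same strand. That call was lost without LiKM normal diet 1 or 2 or LiK normal diet 2 or 3 (adjusted p 0.0517 to 0.0825). Adam11, Adam22 and Adam23, which lack a working protease site and are known from nerve cells, had log2 fold changes of -0.64, 0.77 and 0.19 on normal diet and did not pass. The 5 ADAMs not tested were Adam4, Adam1b, Adam2, Adam7 and Adam28, with summed counts of 68, 43.5, 27, 27 and 19.35. Adam28 values were not whole in any library, and its reads may be shared with other genes.

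**Figure D4:**
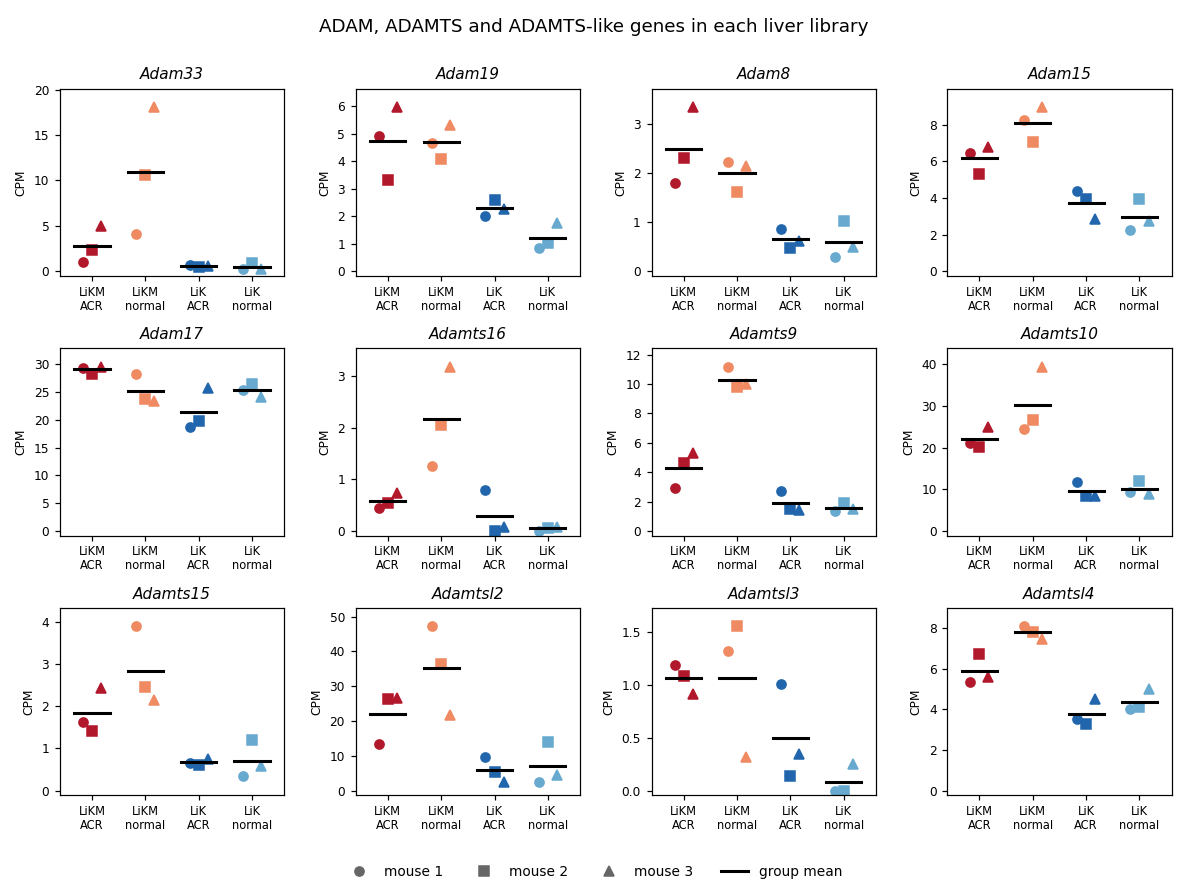
CPM of 5 ADAMs, 4 ADAMTS and 3 ADAMTS-like genes in each library (points, 1 shape per mouse number) with group means (bars), on linear axes. Adamts9, Adamts16 and Adam33 were highest in LiKM livers on normal diet, at 9.79 to 11.2, 1.26 to 3.18 and 4.14 to 18.1 CPM.

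Within the ADAMTS family, 5 tested enzymes cut proteoglycans such as versican and aggrecan. Of these, 4 were called higher on normal diet and 2 on ACR, beside 13.2% and 5.55% of all genes tested. Adamts9, an enzyme of this kind, stood at 11.2, 9.79 and 10 CPM in LiKM livers and 1.34, 1.92 and 1.51 CPM in LiK livers on normal diet. On ACR it stood at 2.92, 4.61 and 5.31 CPM in LiKM livers and 2.74, 1.46 and 1.44 CPM in LiK livers. The LiKM livers on normal diet held the 3 highest values, and LiKM livers on ACR lay between those and the LiK livers. Adamts9 was 6.43-fold higher on normal diet (log2 2.68 ± 0.29, adjusted p = 0.000241), also without any 1 library, and 2.28-fold higher on ACR (log2 1.19 ± 0.29, adjusted p = 0.0274). The call on ACR was lost without LiKM ACR 2 or 3 or LiK ACR 2 or 3 (adjusted p 0.0695 to 0.116). A730049H05Rik overlaps 1381 bases of its exons on the other strand.

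Adamts15, of the same group, stood at 3.9, 2.47 and 2.15 CPM in LiKM livers and 0.352, 1.19 and 0.586 CPM in LiK livers on normal diet. With ACR the levels were 1.62, 1.42 and 2.44 CPM in LiKM livers and 0.649, 0.599 and 0.755 CPM in LiK livers. On neither diet did the strains overlap. Adamts15 was 3.88-fold higher on normal diet (log2 1.96 ± 0.41, adjusted p = 0.00758), also without any 1 library, and its log2 fold change was 2.60 without LiK normal diet 2. The 2.72-fold difference on ACR did not pass (adjusted p = 0.0533). Adamts1 was 1.54-fold higher on normal diet (adjusted p = 0.00750), at 20.1 ± 2.73 CPM in LiKM and 13 ± 1.62 CPM in LiK, a call that held without any 1 library. Adamts5, the main aggrecan-cutting enzyme of mouse cartilage, was 2.19-fold higher on normal diet (adjusted p = 0.0167) and 2.02-fold higher on ACR (adjusted p = 0.0499). On normal diet it was lost without LiKM normal diet 2 or LiK normal diet 1 or 3 (adjusted p 0.0521 to 0.0614), and on ACR without any 1 of 9 libraries (adjusted p 0.0506 to 0.155), all but LiKM ACR 1 and LiKM normal diet 1 and 2. Adamts4, the fifth tested, had a 5.51-fold difference on normal diet that did not pass (adjusted p = 0.0675).

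Adamts16, known in mice from kidney and gonad, stood at 1.26, 2.04 and 3.18 CPM in LiKM livers and 0, 0.0566 and 0.0837 CPM in LiK livers on normal diet. LiKM livers on ACR held 0.435, 0.542 and 0.732 CPM, against 0.793, 0 and 0.0686 CPM in LiK livers on ACR. Normal diet parted the strains, while LiK ACR 1 held more than any LiKM liver on ACR. That library also held the highest biliary marker sum among LiK livers, 215 CPM, and the part of these cells was not tested. Behind the normal diet values lay 21, 29 and 40 counts in LiKM livers and 0, 1 and 1 in LiK livers. Adamts16 was 39.7-fold higher on normal diet (log2 5.31 ± 1.02, adjusted p = 0.00479), also without any 1 library, though the fold rests on a total of 2 counts in LiK. The ratio of the pooled counts, 90 in LiKM over 2 in LiK per scaled depth, was 45.4, with a 95% exact binomial interval of 12.2 to 380 that covers counting error only. On ACR it did not pass (log2 1.01 ± 0.85, adjusted p = 0.480).

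Adamts14, an enzyme that removes the N-terminal propeptide of fibrillar procollagens, stood at 2.76, 1.97 and 6.28 CPM in LiKM livers and 0.986, 1.3 and 1.17 CPM in LiK livers on normal diet. Under ACR, LiKM livers held 1.55, 1.56 and 3.96 CPM and LiK livers 1.66, 1.27 and 1.17 CPM. LiKM normal diet 3 and LiKM ACR 3 stood above the other LiKM livers of their diet. Adamts14 was 3.13-fold higher on normal diet (log2 1.65 ± 0.48, adjusted p = 0.0308). Without LiKM normal diet 3 the log2 fold change was 1.01 (adjusted p = 0.132), and the call was also lost without any 1 of the LiK normal diet libraries (adjusted p 0.0612 to 0.0998). On ACR it did not pass (log2 0.80 ± 0.48, adjusted p = 0.311). Adamts2, the best known procollagen N-proteinase, stood at 12 ± 3.12 CPM in LiKM and 6.25 ± 4.81 CPM in LiK on normal diet and did not pass (log2 0.92, adjusted p = 0.242).

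Adamts12 stood at 1.2, 0.845 and 1.59 CPM in LiKM livers and 0.211, 0.226 and 0.251 CPM in LiK livers on normal diet. Values on ACR were 0.809, 0.136 and 0.915 CPM in LiKM livers and 0.361, 0.133 and 0.137 CPM in LiK livers. LiKM ACR 2 lay with the LiK livers. Adamts12, which cuts cartilage oligomeric matrix protein, was 5.13-fold higher on normal diet (log2 2.36 ± 0.61, adjusted p = 0.0181), lost without LiKM normal diet 3 or any 1 of the LiK normal diet libraries (adjusted p 0.0516 to 0.0636). On ACR it did not pass (log2 1.56 ± 0.65, adjusted p = 0.146). Adamts10, a partner of fibrillin microfibrils, averaged 30.2 ± 8.11 CPM in LiKM and 10 ± 1.63 CPM in LiK on normal diet and 22.1 ± 2.56 CPM in LiKM and 9.48 ± 2.03 CPM in LiK on ACR (SD, n = 3 each). It was 2.99-fold higher on normal diet (log2 1.58 ± 0.21, adjusted p = 0.000667) and 2.33-fold higher on ACR (log2 1.22 ± 0.21, adjusted p = 0.00735). Of the 11 members called on ACR, Adamts10 was the one whose call there held in all 12 fits without 1 library, and its call on normal diet held in all 12 as well.

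Adamts13, which cuts von Willebrand factor and is made in liver chiefly by stellate cells, stood at 10.4, 13.9 and 15.7 CPM in LiKM livers and 9.65, 11.9 and 8.96 CPM in LiK livers on normal diet. On ACR it stood at 10.5, 12.3 and 13.2 CPM in LiKM livers and 13.4, 8.99 and 10.6 CPM in LiK livers. The strains overlapped on both diets, and neither difference passed (log2 0.38 ± 0.19, adjusted p = 0.176 on normal diet and log2 0.13 ± 0.19, adjusted p = 0.704 on ACR). Its values were not whole in any library, so that some of its reads may be shared with other genes. Adamts6 and Adamts7 had log2 fold changes of 1.38 and 0.19 on normal diet and -0.29 and -0.10 on ACR and did not pass. Adamts3, Adamts17 and Adamts8, with summed counts of 81, 14.2 and 11, were not tested.

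Among the ADAMTS-like genes, Adamtsl2, which binds fibrillin and the latent form of transforming growth factor beta, held the most counts. It stood at 47.2, 36.4 and 21.6 CPM in LiKM livers and 2.32, 14 and 4.61 CPM in LiK livers on normal diet. With ACR the levels were 13.4, 26.3 and 26.5 CPM in LiKM livers and 9.73, 5.26 and 2.47 CPM in LiK livers. All LiKM livers lay above the LiK livers of their diet, and LiK normal diet 2 stood above the other LiK livers, as in Mmp2 and Timp2. Adamtsl2 was 4.91-fold higher on normal diet (log2 2.30 ± 0.63, adjusted p = 0.0267), and log2 3.35 without LiK normal diet 2. The call was lost without LiKM normal diet 1 or 2 or LiK normal diet 1 or 3 (adjusted p 0.0546 to 0.0918). Its 3.80-fold difference on ACR did not pass (log2 1.93 ± 0.64, adjusted p = 0.0801).

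Adamtsl4, known from fibrillin fibres of the eye, stood at 8.1, 7.82 and 7.48 CPM in LiKM livers and 4.02, 4.13 and 5.02 CPM in LiK livers on normal diet. LiKM livers on ACR held 5.35, 6.71 and 5.61 CPM, against 3.53, 3.26 and 4.53 CPM in LiK livers on ACR. The strains did not overlap on either diet. Adamtsl4 was 1.78-fold higher on normal diet (log2 0.83 ± 0.18, adjusted p = 0.00758), also without any 1 library. It was 1.56-fold higher on ACR (log2 0.64 ± 0.18, adjusted p = 0.0441), lost in 10 of 12 fits without 1 library, all but LiKM normal diet 3 and LiK ACR 3 (adjusted p 0.0529 to 0.166).

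Adamtsl3 stood at 1.32, 1.55 and 0.318 CPM in LiKM livers and 0, 0 and 0.251 CPM in LiK livers on normal diet. Under ACR, LiKM livers held 1.18, 1.08 and 0.915 CPM and LiK livers 1.01, 0.133 and 0.343 CPM. LiKM normal diet 3 lay close to LiK normal diet 3, and LiK ACR 1 lay among the LiKM livers on ACR. Adamtsl3 was 13.9-fold higher on normal diet (log2 3.79 ± 1.02, adjusted p = 0.0218), a fold that rests on 3 counts in 1 LiK library. The ratio of the pooled counts, 48 in LiKM over 3 in LiK, was 16.1 per scaled depth, with an exact 95% counting interval of 5.2 to 81. The call was lost without LiKM normal diet 1 or 2 or LiK normal diet 1 or 2 (adjusted p 0.0540 to 0.0794), and the log2 fold change was 3.12 without LiK normal diet 2. Without LiK normal diet 3 the LiK group is at 0 and the fitted value, 7.03, depends on the count the fit adds. On ACR Adamtsl3 did not pass (log2 1.10 ± 0.74, adjusted p = 0.366). Adamtsl1 and Adamtsl5 had log2 fold changes of 0.72 and 0.76 on normal diet and 1.53 and 1.22 on ACR, and did not pass (adjusted p 0.0898 to 0.437).

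Levels can be compared between members only per length, here as CPM per kilobase of merged exons. In LiKM livers on normal diet the order began with Mmp15 at 18.7, Adam9 at 17.4, Mmp19 at 12.5, Timp2 at 10.9, Timp3 at 9.48, Mmp14 at 8.64 and Adam10 at 7.92 CPM per kilobase. In LiK livers on normal diet it began with Adam9 at 23.3, Mmp19 at 18.6, Mmp15 at 16, Adam10 at 7.33, Timp3 at 5.75, Mmp14 at 5.72 and Timp2 at 4.24 CPM per kilobase. Timp2 stood above Timp3, Mmp14 and Adam10 in LiKM and below them in LiK. The spread of Timp3 in LiKM, 77.2 ± 40.6 CPM (SD, n = 3), is wider than the steps to its neighbours in this order. Most members with large fold changes were low in the ranking. Mmp7 stood at 1.67, Adam33 at 2.02, Adamts9 at 0.684 and Adamts16 at 0.316 CPM per kilobase in LiKM livers on normal diet, against 0, 0.0845, 0.106 and 0.00685 CPM per kilobase in LiK livers on normal diet.

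The diet comparisons ask whether ACR alters these genes in each strain. In LiKM, 0 of 46 members were called by edgeR and 0.00% of all genes were called in either direction. There 8 members had an unadjusted p under 0.05, beside 1005 of the 13880 genes tested. DESeq2 called 71 of all genes and among them 1 member, Adamts9, which was lower on ACR (log2 -1.27, adjusted p = 0.00429, against 0.187 with edgeR). All 3 LiKM livers on ACR, at 2.92 to 5.31 CPM, lay below the 3 on normal diet, at 9.79 to 11.2 CPM. Of the other 7 members, Adam1a, Adam33, Adamts5, Adamts10, Adamts16, Adamtsl4 and Mmp24 all had lower levels on ACR, with log2 differences of -1.98 (Adam33) to -0.41 (Adamtsl4 and Mmp24) and adjusted p of 0.440 to 0.683. Libraries did not overlap between diets in Adam1a, Adamts16, Adamtsl4 and Mmp24, and overlapped in Adam33, Adamts5 and Adamts10. The share without overlap over all genes was not counted. The 8 were picked by their p in these same livers, so neither a lack of overlap nor agreement by mouse number is further support. Set side by side by mouse number, levels on ACR were below those on normal diet at all 3 numbers in each of the 8 but Adamts5, which was lower at 2 of 3. Adam33 on ACR was at 0.240, 0.218 and 0.274 of its level on normal diet at numbers 1, 2 and 3. With the number as a replicate block within LiKM its log2 difference was -2.03 (adjusted p = 0.0530), 12 members had an unadjusted p under 0.05 and none passed after adjustment. Over the 46 members the median log2 difference was -0.21, beside -0.01 over all genes, and it stood at -0.34 beside -0.16 with library size scaling. Biliary markers, 371 to 580 CPM on ACR against 675 to 1122 CPM on normal diet in LiKM, were lower too, with 0 of 13 called and 10 at an unadjusted p under 0.05. Macrophage markers were higher, at 669 to 682 CPM on ACR against 300 to 542 CPM on normal diet, with 15 of 16 above 0, 0 called and 4 at an unadjusted p under 0.05. Their part in these differences was not tested.

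In LiK, 0 members were called in the main edgeR fit, beside 0.130% of all genes called higher and 0.0648% called lower. Of 46 members, 3 had an unadjusted p under 0.05, beside 1953 of the 13880 genes tested, a larger share. Adam11, a protease-dead ADAM, stood at 3.53, 4.59 and 2.54 CPM on ACR and 6.55, 9.34 and 6.53 CPM on normal diet, without overlap. DESeq2 called it lower on ACR (log2 -1.07, adjusted p = 0.0169), among 390 of all genes it called, and the main edgeR fit did not (adjusted p = 0.118). Adam19 stood at 2.02, 2.6 and 2.26 CPM on ACR and 0.845, 1.02 and 1.76 CPM on normal diet (log2 0.95 ± 0.31, adjusted p = 0.215). The third was Adamtsl3, at 1.01, 0.133 and 0.343 CPM on ACR and 0, 0 and 0.251 CPM on normal diet (log2 2.66 ± 1.13, adjusted p = 0.320). The Timp genes and gelatinases did not pass in either strain.

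**Figure D5:**
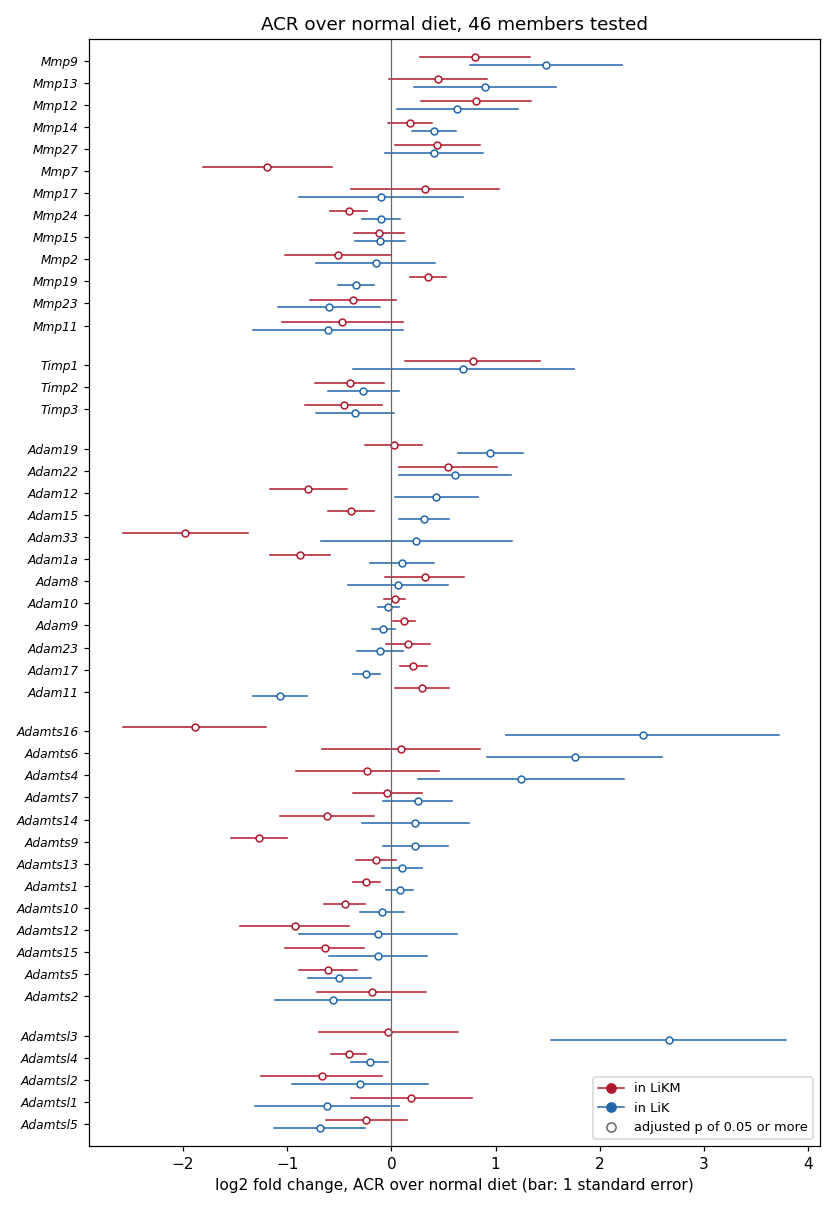
Log2 fold change of ACR over normal diet with 1 standard error for the members tested, in LiKM (red) and LiK (blue), ordered within each family by the LiK value. No point is filled, as 0 members passed an adjusted p of 0.05 in the main edgeR fit. Mmp7 has no LiK point because it was at 0 there on both diets.

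The difference of the diet effects, LiKM minus LiK, was called in 0 of 46 members by edgeR and by DESeq2. By edgeR 8 had an unadjusted p under 0.05, beside 1593 of the 13880 genes tested. Of all genes tested, 0.00720% were called with a higher and 0.00% with a lower effect in LiKM. The smallest p was that of Adam11 (log2 1.37 ± 0.37, adjusted p = 0.225), which stood at 4.66 to 7.59 CPM on ACR and 4.22 to 5.63 CPM on normal diet in LiKM. Adamts9 followed (log2 -1.50 ± 0.41, adjusted p = 0.229). A difference in calls between the 2 diets or the 2 strains is therefore not shown for any member at this threshold.

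Other genes of matrix turnover were read from lists of neighbouring systems. Of all genes, 13.2% were called higher and 8.61% lower on normal diet, and 5.55% and 4.24% on ACR. Of 12 tested genes of the plasminogen system, which activates several MMP precursors, 7 were higher and 2 lower in LiKM on normal diet, and 2 higher on ACR. The 2 lower were Plg, plasminogen itself, at 1748 CPM in LiKM and 2481 CPM in LiK (1.42-fold, adjusted p = 0.0343), and Vtn (1.33-fold, adjusted p = 0.0491). The annexin Anxa2, a plasminogen receptor, averaged 49.6 CPM in LiKM and 11.7 CPM in LiK on normal diet (4.22-fold, adjusted p = 0.00102), followed by Plat, the tissue activator (6.09-fold, adjusted p = 0.0120), Plgrkt (2.53-fold, adjusted p = 0.0132) and Serpini1 (6.46-fold, adjusted p = 0.0138). Of 8 tested inhibitors of other proteases, 5 were higher on normal diet and 2 on ACR. They were led by Spint1, an inhibitor of matriptase, at 7.87 CPM in LiKM and 0.479 CPM in LiK on normal diet (15.7-fold, adjusted p = 5.86e-05). St14, matriptase itself, was among 2 higher and 2 lower of 10 membrane serine proteases and meprins, at 12.3 CPM in LiKM and 0.53 CPM in LiK on normal diet (23.0-fold, adjusted p = 0.000213). The 2 lower were Tmprss6 (1.40-fold, adjusted p = 0.00758) and Hpn (1.25-fold, adjusted p = 0.0419). Spint1 and St14 were also higher on ACR (6.23-fold and 9.05-fold).

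Counts in the lists that follow stand beside the 13.2% of all genes called higher and 8.61% called lower on normal diet. On ACR these shares were 5.55% and 4.24%. Of 12 regulators of Adam10 and Adam17, 2 were higher (16.7%) and 1 lower on normal diet, a share near that of all genes, and on ACR 1 was lower, the convertase Furin (1.32-fold, adjusted p = 0.0465). The higher ones were the inactive rhomboids that carry Adam17 to the cell surface, Rhbdf1 (3.13-fold, adjusted p = 9.88e-05) and Rhbdf2 (1.68-fold, adjusted p = 0.0309). Among 6 tested EGF receptor family ligands that ADAMs shed, 3 were higher on normal diet, Nrg1 (12.1-fold), Hbegf (3.58-fold) and Btc (2.03-fold). On ACR 0 were called, with 2 at an unadjusted p under 0.05. Of 14 proteoglycans and matrix glycoproteins, 9 were higher on normal diet and 4 on ACR, where 8 had an unadjusted p under 0.05. Those of smallest p on normal diet were Hspg2 (2.21-fold), Nid1 (3.54-fold), Fbln2 (3.62-fold) and Thbs1 (5.57-fold). Of 13 collagens, 3 were higher on normal diet, Col4a1 (2.74-fold), Col4a2 (2.55-fold) and Col6a3 (3.90-fold), and 1 was lower, Col18a1 (1.51-fold). No collagen was called on ACR, where 8 had an unadjusted p under 0.05. Cathepsins gave 2 higher and 2 lower of 12 on normal diet (16.7% each) and 0 on ACR, with 3 there at an unadjusted p under 0.05. Of 9 crosslinking enzymes, 2 were higher on normal diet, Plod2 (4.65-fold) and Tgm2 (1.76-fold), and 1 on ACR, Plod2 (4.63-fold). Pcolce, the enhancer of procollagen C-proteinase, was the 1 of 3 tested tolloid genes that was higher, on normal diet (1.91-fold) and on ACR (2.06-fold). In the diet comparisons edgeR called 0 genes of these 10 lists, with 0 to 3 per list at an unadjusted p under 0.05 in each strain.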

How the data were processed

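Liver RNA of 12 male mice was made into stranded mRNA libraries, per the labels' protocols, and sequenced. The deposited table holds the authors' expected counts per gene symbol and library, of which 18.9% of the values above 0 are not whole (tolerance 1e-09). FeatureCounts 2.0.0 and mm10 are named by the submitters' processing notes. No source used here gives the aligner, annotation, strand setting or treatment of shared reads. Groups and mouse numbers come from the titles, which name separate mice, and all value columns were matched to a title. LiK and LiKM livers also share a genotype element that is not reported here.

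Counts were rounded to whole numbers. With R 4.3.3 and edgeR 4.0.16, filterByExpr by group kept 13880 of 24421 genes, TMM scaled the libraries, and glmQLFit (robust) with glmQLFTest was run on all 12 libraries with 1 coefficient per group. P-values were adjusted by Benjamini-Hochberg over all genes tested in a comparison (threshold 0.05). A standard error is the absolute log2 fold change divided by the root of the F statistic. The biological coefficient of variation was 0.203. Libraries held 10124813 to 18647156 counts, and each pair of replicates differed by more than sampling noise (chi-square over its degrees of freedom, 15.7 to 65.1). The scripts were tested on simulated data. DESeq2 1.42.0 and other scalings, filters, blocks and left-out libraries were alternatives. Gene positions, exon lengths and overlaps come from GENCODE M21 (mm10).

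The text names every member past the threshold in a comparison. Every library is given for the 5 of largest fold change per family whose higher group averaged 1 CPM or more, and for Timp1 to Timp3, Mmp2, Mmp9, Mmp14, Adam10, Adam17 and Adamts13. Up to 4 genes of smallest p are named per related list, and further genes were named after their values were seen. Members and lists were chosen with earlier results of these data known.

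Whether mouse numbers pair the samples was checked by correlating, across genes, the deviations of same-numbered mice from their group means. Between LiKM on ACR and on normal diet it was 0.37, 0.22 and 0.48 for the 3 numbers. The numbers were treated as pairing these livers by the rule that every value exceeds 0.1, though no label says what a number shares. With 3 numbers, the rule cannot tell paired livers from unpaired ones that line up by accident. In the other comparisons it lay between -0.10 and 0.08. With the number as a replicate block within LiKM, 0 members were called between diets in LiKM, as without it.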

Additional observations from a re-analysis of the deposited data

How the results depend on the processing

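No called value of a single member changed direction under any alternative: of 824 values over 36 member comparisons, 601 stayed past the threshold and 223 did not. On normal diet, 25 members were called between strains, 27 with DESeq2, 32 (all higher) with library size scaling, 18 with the compared groups alone and 13 without the 3 libraries of the other identifier prefix. Leaving out 1 library gave 12 to 26, with 12 without LiK normal diet 1 or 3 and 15 without LiKM normal diet 2. On ACR, 11 were called, 15 with DESeq2, but 6 without a filter on low counts, 4 with the compared groups alone, 3 with the prefix as a covariate, 4 without the 3 libraries apart in clock genes, which leaves 1 LiKM liver on ACR, and 5 without those of the other prefix. Leaving out 1 library gave 1 to 11, the lowest without LiK ACR 2. Alternatives without the clock or prefix libraries were chosen after seeing the data. The causes were not tested.

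With a replicate block over all libraries, 24 members were called on normal diet and 7 on ACR. With a replicate block within LiKM, 24 were called on normal diet and 14 on ACR. Between diets, 1 member was called in LiKM with DESeq2, among 71 of all genes. In LiK, 1 was called, Adam11, with DESeq2, with the compared groups alone and with either replicate block (adjusted p 0.0169 to 0.0463). Without the clock libraries its log2 difference was -1.07. Of all genes, 27 were called there in the main fit and 390 with DESeq2. The compared groups alone gave 812, the block within LiKM 701 and the block over all libraries 36. With library size scaling, the median of all genes moved to 0.40 between strains on normal diet, 0.14 on ACR, -0.16 between diets in LiKM and 0.13 in LiK. The member medians were then 1.52, 1.12, -0.34 and 0.07, the last of which was -0.01 with TMM. Adding the prefix to the model as a term made folds on normal diet over 1.5 times larger for Adam33 (log2 5.67), Adam8 (2.37), Adamts14 (2.29), Adamts15 (2.64), Adamtsl2 (3.15), Mmp2 (2.57) and Mmp13 (2.90). Without the clock libraries folds were over 1.5 times smaller on normal diet for Adam33 (log2 3.86) and Adamts14 (1.01), and larger on ACR for Timp1 (3.56). Counts of at most 44 per library limit Mmp7, Timp1, Mmp9, Mmp13, Adam1a, Adam8, Adam12, Adamts12, Adamts16 and Adamtsl3 on normal diet.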
